A study of Mus musculus with 4 samples.

Results

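The cells described here are lymph node stromal cells rich in transcripts of 4 inflammatory genes, and they are called members below. Ptgs2 encodes the inducible cyclooxygenase of prostaglandin synthesis, Il6 and Lif encode cytokines of the IL-6 family, and Cxcl5 encodes a chemokine that draws neutrophils. A cell was a member if it held at least 5 unique molecular identifiers (UMIs, each standing for 1 captured transcript) of these 4 genes together, and at least 10 per 10000 of its UMIs. It also had to show at least 1 UMI of the fibroblast genes Pdgfra, Pdgfrb, Col1a1 or Col3a1, and none of the endothelial gene Pecam1 or the leukocyte gene Ptprc. Of 50316 cell barcodes, 46638 had at least 500 genes, at least 1000 UMIs and at most 10% mitochondrial UMIs, and 41852 of those passed the fibroblast, Pecam1 and Ptprc conditions (stromal-gated cells). The members were 5363 of these 41852 cells, and the other 36489 are called other stromal cells.

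Fibroblastic reticular cells form the network on which lymphocytes move in lymph nodes, and they make the chemokines Ccl19 and Ccl21a and the survival cytokine Il7. Fibroblasts that sense IL-1, TNF or Toll-like receptor ligands activate NF-kB transcription factors, which induce Il6, neutrophil and monocyte chemokines and their own inhibitors such as Nfkbia and Tnfaip3. Ptgs2, Il6 and Lif are also rapidly induced when tissue is dissociated with enzymes.

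The 4 libraries were made by droplet-based sequencing of transcript 3′ ends from live CD45- CD31- stromal cells of axillary, brachial and inguinal nodes of female C57BL/6 mice aged 12 weeks, after digestion with collagenase P and dispase. Notch2 cKO 1 came from mice with Ccl19-Cre, Notch2 fl/fl alleles and the R26R-EYFP reporter, and control 1 from mice with Ccl19-Cre and the reporter and no Notch2 allele named in the label, 6 pooled non-littermates each (batch 1). Notch2 cKO 2 came from mice with Ccl19-Cre and Notch2 fl/fl alleles, and control 2 from littermates labelled Notch2 fl/fl by genotype, 3 pooled mice each (batch 2), although the title of control 2 also names Ccl19-Cre. Cre under the Ccl19 promoter acts in cells with a history of Ccl19 expression, so stromal cells without it keep Notch2. A library was the replicate (n = 2 per genotype). P-values of genotype comparisons in members measure the spread between pools of mice, after batch. Where members are compared with other stromal cells, also between genotypes, p-values measure how differences within a library vary between libraries.

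Library totals ran between 21533049 and 119002408 UMIs, and batch 2 was deeper per cell. Members had medians of 3514.5 and 6548.5 UMIs in Notch2 cKO 1 and 2, and of 2311.5 and 6742 UMIs in control 1 and 2. Other stromal cells had medians of 2926, 7619, 2131 and 5916 UMIs in the same order. Pairs of libraries shared between 21 and 57 cell barcodes. Control 2 stood apart, since 3639 of the 5363 members came from it, and results are therefore also given without it. Among tested markers of other cell types, 0 of 5 endothelial, 0 of 6 leukocyte, 0 of 4 Schwann and 0 of 4 epithelial or mesothelial genes were higher in members than in other stromal cells. The 4 Schwann and the 4 epithelial or mesothelial genes were all called lower in members, as were 1 endothelial and 1 leukocyte gene, and the part of these cell types in the comparison was not tested. Cdh5 lay under 1 CPM (UMIs per 1000000) in the members of each library, while Lyve1, an endothelial marker, lay at 5.04 to 9.29 CPM in members and 4.06 to 6.91 CPM in other cells. Krt8, Epcam and Sox10 were at 0 in the members of batch 1. No doublet caller was run, and the conditions on Pecam1 and Ptprc removed only doublets with endothelial cells or leukocytes.

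The 4 rule genes did not contribute equally. The values in this paragraph describe the choice of members and were not tested. Ptgs2 gave 65.3% and 59.8% of the members' UMIs of the 4 genes in Notch2 cKO 1 and 2, and 63.7% and 57.4% in control 1 and 2. Il6 gave 23.3% and 30.6% in Notch2 cKO and 21.8% and 34.1% in control members, so its part was larger in both libraries of batch 2. Lif was detected in 10.95% and 12.2% of Notch2 cKO members and in 20.9% and 30.1% of control members. Cxcl5 was detected in 18.6% and 20.3% of Notch2 cKO members and in 29.1% and 14.7% of control members. A single rule gene made up all detected UMIs of the 4 in 51.7% and 45.1% of Notch2 cKO members and in 28.6% and 25.3% of control members, so more control members showed at least 2 of the genes. All 4 genes were detected in 1.03% and 1.36% of Notch2 cKO members and in 3.85% and 3.71% of control members. The median member carried 8 (Notch2 cKO 1), 12 (Notch2 cKO 2), 8 (control 1) and 17 (control 2) UMIs of the 4 genes. At the threshold, members with exactly 5 UMIs numbered 68, 39, 109 and 133 in that order, and 151, 304, 176 and 571 stromal cells stood just outside with 4.

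Free RNA in droplets can place such transcripts in cells that do not make them. Lymphocytes served as a background, with a median of 3168.5 UMIs in Notch2 cKO 2 and 3772 UMIs in control 2, shallower than the stromal cells of these libraries. At least 5 UMIs of the 4 genes were found in 0 of 130 lymphocytes of Notch2 cKO 2, which allows a share of up to 2.31%, and in 1 of 142 in control 2. At least 1 Ptgs2 UMI was found in 2.31% of lymphocytes of Notch2 cKO 2 and in 16.9% of those of control 2, against 74.7% and 81.9% of members. Batch 1 held only 14 lymphocytes in Notch2 cKO 1 and 6 in control 1, none with any of the 4 genes. Other stromal cells showed a Ptgs2 UMI in 13.8% and 22.5% of Notch2 cKO and in 15.1% and 30.4% of control cells. In batch 2 these shares were above those of the shallower lymphocytes, and the part of depth was not tested. In batch 1 the lymphocytes were too few to compare, since 0 of 14 and 0 of 6 allow shares of up to 21.4% and 50%. The few endothelial cells were deeper (medians of 7417 UMIs in Notch2 cKO 2 and 9445 UMIs in control 2), and 2 of 13 in Notch2 cKO 2 and 1 of 13 in control 2 held at least 5 UMIs of the 4 genes. Il6 was seen in 7.69% of these endothelial cells in Notch2 cKO 2 and in 46.2% in control 2, against 13.4% and 31.1% of other stromal cells and 63.2% and 78.6% of members. In lymphocytes Il6 was seen in 0 of 130 cells of Notch2 cKO 2 and in 14 of 142 of control 2. In control 2 the Il6 share of other stromal cells did not exceed that of endothelial cells, which rested on 6 of 13 cells. Endothelial cells, unlike lymphocytes, were not required to lack the fibroblast genes. Free RNA, doublets and their own expression were not separated in them.

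The promoters of the member genes are shown because these genes were high in the same cells and because NF-kB and AP-1 are the textbook regulators of this gene group. Each window runs from 250 bases before to 50 after the transcription start (RefSeq, build GRCm38.p6, plus strand for all 5). Capitals mark matches to the kB motif (GGG, any 2 bases, TT, any base, CC) or the AP-1 motif TGANTCA on either strand, which 4.79% and 7.81% of 32851 promoter windows of this length held. The windows are chr1:150099781-150100080 (Ptgs2), chr5:30012864-30013163 (Il6), chr11:4257318-4257617 (Lif), chr5:90890995-90891294 (Cxcl1) and chr5:90903649-90903948 (Cxcl2).
Ptgs2: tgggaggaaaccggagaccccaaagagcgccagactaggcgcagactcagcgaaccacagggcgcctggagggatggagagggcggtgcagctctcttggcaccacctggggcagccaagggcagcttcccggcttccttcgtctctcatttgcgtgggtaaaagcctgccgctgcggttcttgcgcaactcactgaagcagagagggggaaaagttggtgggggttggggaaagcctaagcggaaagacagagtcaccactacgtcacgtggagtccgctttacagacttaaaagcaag
Il6: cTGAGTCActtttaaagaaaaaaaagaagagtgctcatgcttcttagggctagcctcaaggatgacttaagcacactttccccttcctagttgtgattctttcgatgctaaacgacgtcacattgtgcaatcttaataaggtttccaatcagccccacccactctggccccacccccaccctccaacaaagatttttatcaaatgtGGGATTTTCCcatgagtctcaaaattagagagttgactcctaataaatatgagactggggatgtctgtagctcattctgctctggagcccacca
Lif: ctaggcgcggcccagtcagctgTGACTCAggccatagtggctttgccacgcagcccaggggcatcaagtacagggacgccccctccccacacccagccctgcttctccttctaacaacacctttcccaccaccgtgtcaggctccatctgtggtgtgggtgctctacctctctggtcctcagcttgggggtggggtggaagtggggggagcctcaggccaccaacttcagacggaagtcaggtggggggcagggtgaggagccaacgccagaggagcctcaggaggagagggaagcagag
Cxcl1: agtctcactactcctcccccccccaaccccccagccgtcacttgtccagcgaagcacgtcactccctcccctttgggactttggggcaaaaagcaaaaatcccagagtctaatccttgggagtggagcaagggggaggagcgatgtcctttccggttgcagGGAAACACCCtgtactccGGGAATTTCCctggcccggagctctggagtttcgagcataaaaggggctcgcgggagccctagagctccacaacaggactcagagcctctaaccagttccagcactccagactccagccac
Cxcl2: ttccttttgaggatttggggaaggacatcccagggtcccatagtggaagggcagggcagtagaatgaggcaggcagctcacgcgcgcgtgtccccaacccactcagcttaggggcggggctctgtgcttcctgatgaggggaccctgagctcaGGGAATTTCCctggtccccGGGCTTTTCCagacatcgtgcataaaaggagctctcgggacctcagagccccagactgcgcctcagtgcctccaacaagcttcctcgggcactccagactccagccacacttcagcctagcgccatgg
The Il6 window held 1 kB match, GGGATTTTCC, and 1 AP-1 match. Cxcl1 and Cxcl2, which encode neutrophil chemokines, held 2 kB matches each, and GGGAATTTCC occurred in both. Lif held 1 AP-1 match and no kB match, and neither motif's letters occurred in the Ptgs2 window. The window of Tnfaip6, also searched and not printed, held 0 kB matches and 1 AP-1 match. Cxcl5, a rule gene, had no window in the promoter set used. The genes were picked by name, so their matches cannot be read as an enrichment over the shares of all windows. A match is a string of letters and no evidence of binding.

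Members made up a smaller share of cells in Notch2 cKO than in control nodes in both batches, by very different amounts. They were 6.38% of stromal-gated cells in Notch2 cKO 1 (95% exact Clopper-Pearson interval 5.84% to 6.95%) and 5.49% in Notch2 cKO 2 (5.06% to 5.94%). The shares were 7.58% in control 1 (7.03% to 8.17%) and 24.4% in control 2 (23.7% to 25.1%). Intervals cover counting error only. Earlier results of these data had shown the rule genes to be lower in the mutants. The share is therefore a description and no independent finding. The groups did not overlap, but both Notch2 cKO libraries lay close to control 1 and the gap rested on control 2. The mean was 5.93% ± 0.629 in Notch2 cKO and 16.0% ± 11.9 in control (SD, n = 2), a difference of -10.0 percentage points (two-sided exact permutation p = 0.333, the smallest that 2 against 2 libraries allow). It was -1.21 points within batch 1, -18.9 within batch 2 and -1.65 without control 2. With every cell of at least 2000 UMIs thinned to 2000 UMIs and at least 5 of the 4 genes required, the shares were 4.0% and 2.03% in Notch2 cKO and 6.38% and 14.4% in control. This left out 1341, 398, 3569 and 1087 shallower cells of Notch2 cKO 1, Notch2 cKO 2, control 1 and control 2. In that setting the difference was -2.38 points within batch 1 and -12.4 within batch 2, and before thinning the same cells held 7.27% and 5.60% (Notch2 cKO) and 8.86% and 25.6% (control) members. Within a batch, genotype and library cannot be told apart, because each genotype is 1 library.

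**Figure D1:**
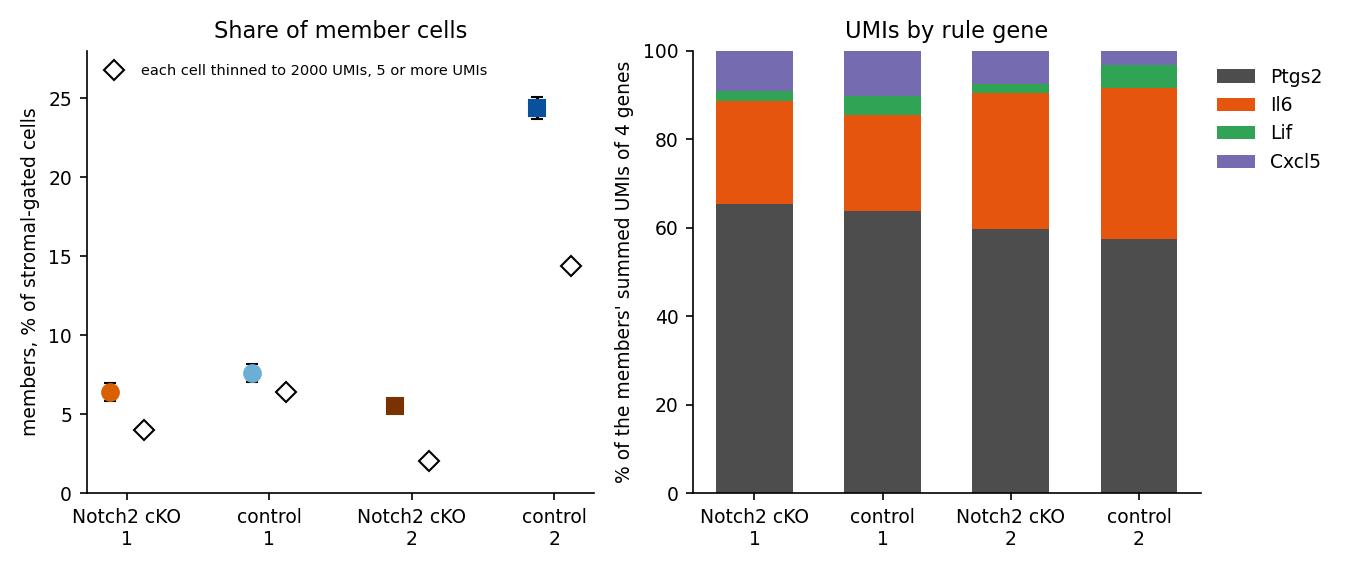
Left, members as a percentage of stromal-gated cells per library (filled points with 95% exact binomial intervals) and after thinning each cell to 2000 UMIs (open diamonds); right, the part of each rule gene in the members' UMIs of the 4 genes. Control 2 lies at 24.4%, the other libraries between 5.49% and 7.58%, and Ptgs2 makes up the largest part in each library.

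The transcriptome of members was then compared with that of other stromal cells, with UMIs summed per library and class and the library as a block (edgeR's quasi-likelihood test, Benjamini-Hochberg threshold 0.05). Rule genes were left out of the calls, as were Srxn1 and Adamts9, which earlier results of these data had marked as high in such cells. Both classes come from the same libraries, and a gene that varies with the rule genes from cell to cell is not independent of how the members were chosen. Of 16206 other genes, 1184 (7.31%) were higher and 943 (5.82%) lower in members, together 13.1%. Of these 2127 calls, 1850 had the same sign in all 4 libraries, and 923 higher and 578 lower genes were called without control 2. Higher genes made up 55.7% of calls with TMM scaling but 28.7% with scaling by library size alone (796 higher, 1974 lower), where the median gene lay at a log2 difference of -0.16 rather than -0.05, and 75.1% with DESeq2 (1155 higher, 382 lower). Fitted without the library block the test made 0 calls, with 385 higher and 420 lower at an unadjusted p under 0.05. The counts of list genes below stand beside these shares over all genes, 7.31% higher and 5.82% lower. Levels below are TMM-scaled CPM, and log2 differences are members minus other stromal cells.

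Most of the tested neutrophil and monocyte chemokine genes were higher in members. Cxcl5 itself, a rule gene, lay at 292 and 142 CPM in members of Notch2 cKO 1 and 2 and at 466 and 114 CPM in those of control 1 and 2. Of the 11 other genes of this list that could be tested, 7 were higher and 1 was lower in members, with a median log2 difference of 1.60 against -0.05 over all genes. Cxcl2, a neutrophil chemokine, was at 544 and 476 CPM in Notch2 cKO members and 1442 and 909 CPM in control members. In the other stromal cells Cxcl2 was at 90.3 and 135 CPM (Notch2 cKO) and at 249 and 235 CPM (control). Every member value was thus above every other stromal value (log2 difference 2.21 ± 0.11 SE, edgeR adjusted p = 1.19e-10). Cxcl1, of the same family, averaged 5670 ± 1506 CPM in members and 1865 ± 481 CPM in other cells (SD, n = 4, log2 difference 1.60). The monocyte attractants Ccl2 and Ccl7 averaged 3134 ± 1201 and 1866 ± 352 CPM in members and 960 ± 271 and 686 ± 160 CPM in other cells. The eosinophil chemokine Ccl11 differed by 1.02 and the granulocyte growth factor Csf3 by 2.70, with Csf3 at no more than 25.8 CPM in any member sum. Cx3cl1, a membrane-bound chemokine, was lower in members in 4 of 4 libraries (-0.37), and Csf1, the macrophage growth factor, at 185 ± 58.6 against 164 ± 51.4 CPM did not pass the test (adjusted p = 0.14, edgeR).

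Of 20 genes listed as NF-kB subunits, feedback inhibitors and targets, 17 were higher in members and none was lower, the other 3 being Nfkb2, Traf1 and Icam1 (median log2 difference 0.53). Nfkb1, which encodes an NF-kB subunit precursor, was at 626 and 2216 CPM in Notch2 cKO members and 776 and 2865 CPM in control members. In other stromal cells Nfkb1 was at 173 and 650 CPM (Notch2 cKO) and 174 and 802 CPM (control). The level was higher in batch 2 in both classes, and within each library members were higher (log2 difference 1.90 ± 0.08 SE, edgeR adjusted p = 1.52e-11). The subunit genes Rel and Rela differed by 1.16 and 0.91, and the inhibitor genes Nfkbia, Tnfaip3, Nfkbiz and Zc3h12a by 0.71, 0.97, 0.75 and 0.87. Without control 2, 15 of the 20 were called higher and none lower.

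**Figure D2:**
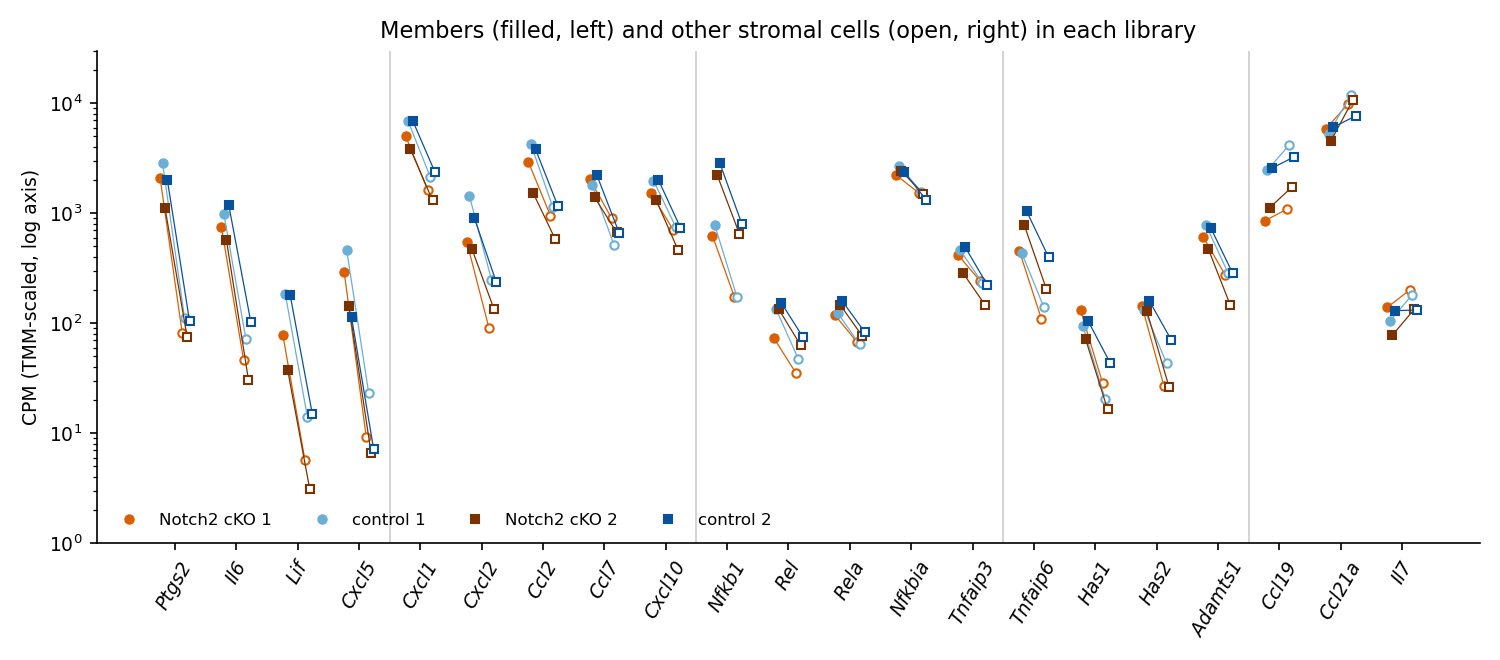
TMM-scaled CPM (log axis) of the rule genes, chemokines, NF-kB genes, matrix genes and T-zone factors in members (filled, left) and other stromal cells (open, right), with a line per library. Ptgs2 is the first gene on the left and is shown as a description; Ccl19 and Ccl21a are lower in members in 4 of 4 libraries.

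Of 16 tested receptor, adaptor and alarmin genes of the IL-1, TNF, IL-17 and Toll-like families, 8 were higher and none was lower. Il1r1, the signalling IL-1 receptor, was at 264 and 641 CPM in Notch2 cKO members and 298 and 877 CPM in control members. It was at 232 and 392 CPM in Notch2 cKO and 235 and 429 CPM in control cells of the other class, so the gap was small in batch 1 and larger in batch 2 (log2 difference 0.59 ± 0.11 SE). The receptor genes Tlr2 and Il17ra differed by 0.80 and 0.92, Tnfrsf1a by 0.36, and the alarmin Tslp by 1.25. Il33, another alarmin, averaged 409 ± 36.1 CPM in members and 407 ± 104 CPM in other cells and did not pass the test. In the IL-6 family list, 5 of 10 tested genes outside the rule were higher, among them the oncostatin M receptor Osmr (0.40) and the feedback gene Socs3 (0.36). The signal-transducing Il6st (0.00) and Lifr (0.01) did not pass the test.

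Immediate early genes, which respond within minutes to stimuli and to tissue dissociation, moved unevenly. Of 22 genes in the list of immediate early, heat shock and dissociation genes, 15 were higher and 3 lower in members. The AP-1 gene Fosl1 differed by 2.18, and was at 20.8 and 16.6 CPM in Notch2 cKO and 24.6 and 32.5 CPM in control members, against 3.34, 5.24, 3.61 and 7.49 CPM in the same order in other cells. The nuclear receptor genes Nr4a1, Nr4a2 and Nr4a3 differed by 1.17, 1.72 and 1.63, and Egr2 and Egr3 by 1.39 and 1.28. Fos (0.02) and Jun (0.05), the most used markers of dissociation, did not pass the test. The 3 lower genes were the heat shock genes Hspa1a, Hspa1b and Hsph1 (-0.54, -0.51 and -0.48). Of 15 tested targets of the antioxidant factor NRF2, only the cystine transporter gene Slc7a11 was called, and it was lower (-0.66). Srxn1, an antioxidant enzyme gene given as a description, was at 95.8 and 42.5 CPM in Notch2 cKO and 163 and 99.7 CPM in control members, against 15.1, 9.34, 18.7 and 16.3 CPM in other cells of the same 4 libraries.

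Of 17 tested genes of the prostaglandin pathway other than Ptgs2, 2 were higher and 3 lower in members. Over all genes 7.31% were higher and 5.82% lower, and the median log2 difference was -0.14 in the list against -0.05. The higher genes were Ptges, the inducible prostaglandin E synthase (50.5 ± 21.6 against 32.2 ± 14.3 CPM, log2 difference 0.60), and Pla2g4a, which releases arachidonic acid (0.32). The lower genes were Hpgd, which degrades prostaglandins, the uptake transporter gene Slco2a1 and the receptor gene Ptger2. Hpgd was at 99.7 and 70.5 CPM in Notch2 cKO and 66.8 and 69.6 CPM in control members, against 148, 111, 148 and 106 CPM in other cells, with no overlap between the classes (-0.72 ± 0.09 SE, edgeR adjusted p = 1.30e-05). Ptger2 lost its call without control 2 (adjusted p = 0.069, edgeR).

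Of 14 tested hyaluronan and matrix-remodelling genes, 8 were higher and 2 lower (median 0.81). Has1 and Has2, the hyaluronan synthases, averaged 101 ± 24.6 and 141 ± 14.0 CPM in members and 27.3 ± 12.0 and 41.7 ± 20.6 CPM in other cells, and Tnfaip6, whose product modifies hyaluronan, 681 ± 290 and 214 ± 129 CPM (SD, n = 4). Adamts1 and Adamts4, proteases that cut aggregating proteoglycans, both differed by 1.42. Timp3, a protease inhibitor gene, and Adamts5 were lower (-0.78 and -0.35). Adamts9, of the same protease family and also a description, was at 111 and 1124 CPM in Notch2 cKO and 221 and 1201 CPM in control members, against 31.7, 237, 42.1 and 309 CPM in other cells, so its level differed more between batches than between classes. Of 20 tested genes of structural matrix, 9 were higher, among them Postn (0.88), Lum (0.72) and Dcn (0.56), and 2 were lower, Col15a1 and Col14a1.

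Of 10 T-zone genes, 5 were lower and 1 was higher, against 5.82% lower and 7.31% higher over all genes. Ccl21a averaged 5447 ± 681 CPM in members and 10025 ± 1754 CPM in other cells, Ccl19 1752 ± 891 and 2561 ± 1412 CPM, and Il7 113 ± 27.8 and 162 ± 33.9 CPM (log2 differences -0.87, -0.52 and -0.50). Cxcl12, a chemokine of broader stromal expression, was the higher gene (0.39), and its call was lost without control 1. At least 3 Ccl19 UMIs were found in 40.9% and 60.5% of Notch2 cKO members and in 55.8% and 78.9% of control members. Among other stromal cells the shares were 47.5% and 66.6% in Notch2 cKO and 66.2% and 64.3% in control. In control 2 the share was thus higher in members, and so was that of cells with at least 3 Ccl21a UMIs (71.9% against 67.2%). Both shares were lower in members of each other library. They are not scaled for depth. Restricting both classes to cells with a Ccl19 UMI, an alternative chosen after seeing the data, gave 1096 higher and 811 lower genes, with 16 of the 20 NF-kB genes and 7 of the 11 chemokine genes still higher. Among marginal reticular factors, Tnfsf11, a TNF family cytokine, was higher (1.30), as was the B-cell chemokine Cxcl13 (0.66, in 3 of 4 libraries). The follicular dendritic cell genes Cr2, Fcer2a and Fcgr2b were lower, each under 10 CPM in every member sum, and Fcgr2b lost its call without control 2. Adventitial genes such as Pi16 (-0.86) and Igfbp6 (-0.81) were lower too, 6 of 12 in all with none higher, but 3 of 12 without control 2 and 1 of 12 among cells with a Ccl19 UMI. Of the 11 antigen presentation genes 0 were called by edgeR and 0 by DESeq2, with 3 lower at an unadjusted p under 0.05, and 2 were called lower without control 2.

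Outside the lists, the largest increases included Ptx3 (2.09), which encodes a secreted pattern recognition molecule, Procr (1.82), the protein C receptor, Mt1 (1.76), a metal-binding protein, Dot1l (1.75), a histone methyltransferase, and Fndc7 (1.75). Procr was at 288 and 164 CPM in Notch2 cKO and 727 and 465 CPM in control members, and at 72.6, 64.7, 131 and 164 CPM in other cells. Ptx3 varied widely between libraries, at 147, 14.8, 44.7 and 22.1 CPM in members and 38.0, 2.76, 6.38 and 6.85 CPM in other cells. Ptgs2os, whose log2 difference of 3.90 was the largest of the named genes outside the rule genes, is annotated on the minus strand at chr1:150074873-150099963, beside Ptgs2 on the plus strand (chr1:150100031-150108227). The annotated spans do not overlap. The largest decreases were Ighg1 (-6.18), an antibody heavy chain gene above 15 CPM only in the other cells of the Notch2 cKO libraries, and Sncg, Fat3, Cxcl14, Ly6h, Fabp4, Smoc2, Thbs4, Lingo2, Lurap1l, Tenm4 and Stc2, from -1.66 to -1.07.

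The rule draws a line through a continuous range. Stromal cells were therefore grouped by their UMIs of the 4 genes per 10000, from none, through under 10, to members at 10 to 20, 20 to 40 and 40 and over. Cells at 10 or more per 10000 but with fewer than 5 UMIs of the 4 genes are in no group. This leaves shallow cells out of the upper steps. The levels in this paragraph are CPM without TMM scaling, a description over cells of the same 4 libraries with no test. Nfkb1 in Notch2 cKO 2 was at 566, 934, 1947, 2818 and 4228 CPM over these steps, and in control 2 at 576, 994, 1827, 2531 and 4282 CPM. Nfkb1, Cxcl1, Ccl2, Tnfaip6, Adamts1, Nfkbia, Srxn1 and Adamts9 rose at every step in all 4 libraries. Of the other genes followed, Cxcl2, Nr4a3 and Tnfaip3 did so in 3 libraries, Has1, Socs3 and Cxcl12 in 1 and Timp1 in 0. Hspa1a fell at every step in 3 libraries, and Fos ended below its starting level in all 4. Between cells with none and the highest step, Nfkb1 differed 7.43- to 8.67-fold, Cxcl1 5.22- to 6.94-fold and Srxn1 14.7- to 20.8-fold. Ccl21a went the other way, with the highest step at 0.0786 to 0.427 of the level of cells with none, and Ccl19 at 0.343 to 0.585. Ccl21a fell at every step in 3 libraries, but Ccl19 in only 1. The collagen gene Col1a2 was at 0.932 to 1.24 times that level at the highest step. Cells with none of the 4 genes were shallower than those under 10 per 10000 in each library (medians of 2819 against 3436 UMIs in Notch2 cKO 1, and 4783.5 against 7107 UMIs in control 2), and the part of depth was not tested.

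**Figure D3:**
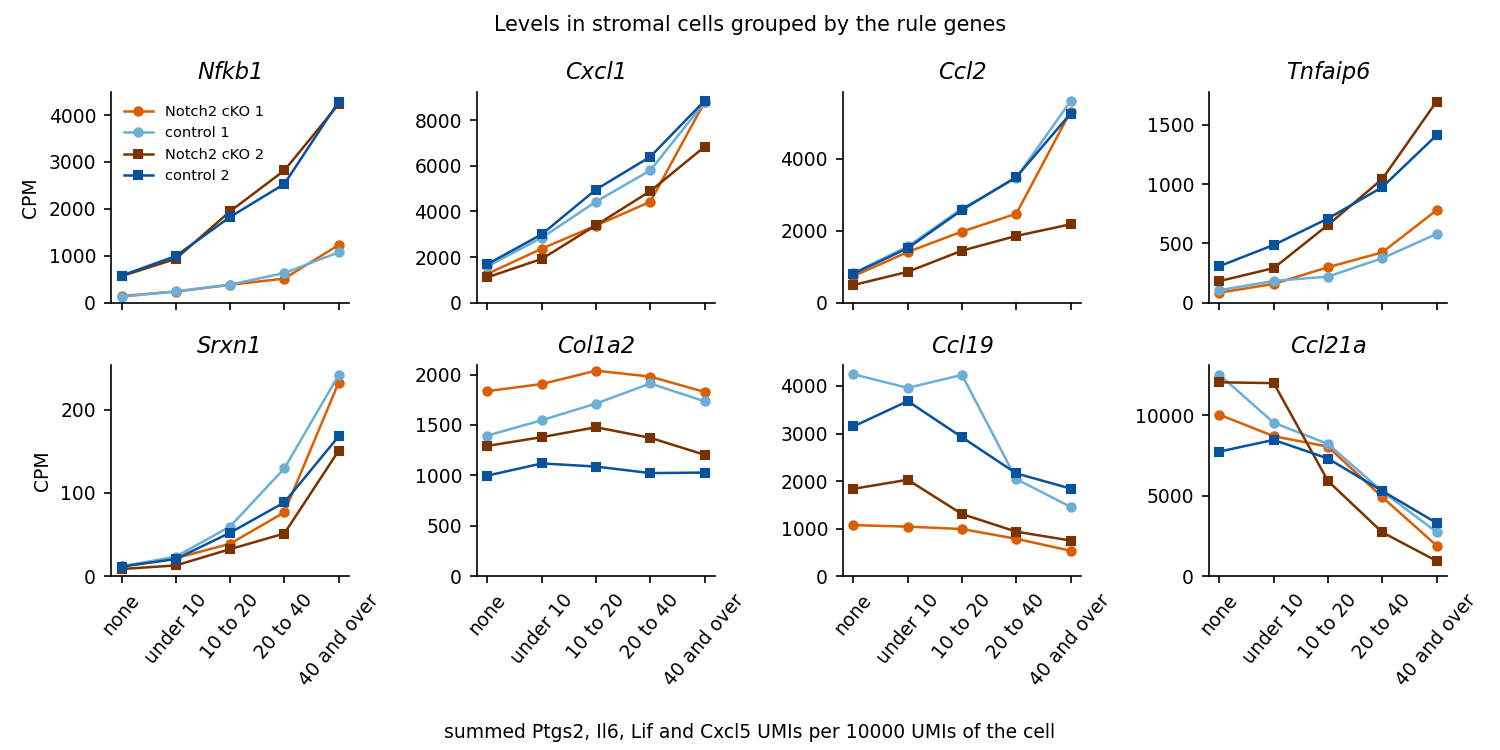
CPM (without TMM scaling, linear axis) of 8 genes in stromal cells grouped by their UMIs of the 4 rule genes per 10000, with a line per library. Groups at 10 and over hold members only. Nfkb1 rises at every step in each library, Col1a2 is at 0.932 to 1.24 times its starting level at the last step, and Ccl21a falls to between 0.0786 and 0.427 of it.

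Members differed in which rule gene led. Ptgs2 made up over 50% of a member's UMIs of the 4 genes in 69.4% and 54.1% of Notch2 cKO members and in 64.5% and 54.7% of control members (Ptgs2-led). Il6 did so in 19.4% and 35.6% of Notch2 cKO members and in 18.9% and 35.2% of control members (Il6-led). This split and its threshold were chosen after seeing the data and carry no test. Of 6671 genes at 20 CPM or more, 44 (0.66%) were at least 1.5-fold higher in Il6-led than in Ptgs2-led members in all 4 libraries, and 15 (0.225%) were at least 1.5-fold lower. The Il6-led side held the matrix genes Tinagl1, Sparcl1, Mgp, Mfap5, Ogn and Lama2, the metallothioneins Mt1 and Mt2, the opioid peptide precursor Penk and the transcription factor genes Ebf2 and Cebpd. Sparcl1 and Mt1 had mean log2 differences of 2.37 and 2.09. The Ptgs2-led side held the matrix gene Thbs4 (-2.81), the parathyroid hormone-related peptide gene Pthlh (-1.73), the MHC class II genes H2-Eb1 and Cd74 (-1.51 and -1.39) and the phospholipase gene Pla2g4a (-0.96). It also held Igkc (-1.57), an antibody light chain gene, and Aif1 (-1.24), a macrophage gene, both markers of leukocytes. Igkc was at 17.4 CPM in Il6-led and 212 CPM in Ptgs2-led members of Notch2 cKO 1, and the part of leukocyte transcripts in the MHC class II values was not tested. Lif was lower in Il6-led members in 3 of 4 libraries, the exception being Notch2 cKO 1. Cxcl5 differed by -0.08 to 0.27, close to equal on both sides. Il6-led members had lower median UMI counts in each library (2884.5 against 3815.5 in Notch2 cKO 1, and 6435 against 7021 in control 2).

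The comparison of Notch2 cKO with control within members asks which genes differ by genotype in these cells. Notch2 was at 17.8 and 30.6 CPM in Notch2 cKO and 37.1 and 56.7 CPM in control members, lower within both batches (log2 differences -1.05 and -0.89) but not past the test (adjusted p = 0.070, edgeR). The 3′ tags need not lie in the floxed part, so this is a limited check of the labels. With batch as a term, 105 of 11506 genes (0.913%) were higher and 52 (0.452%) lower in Notch2 cKO members, together 1.36%, at 1 residual degree of freedom. Scaling by library size alone gave 111 higher and 31 lower (78.2% higher, against 66.9%) with the median gene at 0.12 rather than 0.01. All but 1 of the 157 had a single direction across batches, and in 137 the genotypes did not overlap, against 24.8% of all genes. DESeq2 called 34 higher and 21 lower, and 53 of these 55 were among the 157. Fitted to all 4 libraries without the batch term, the test made 0 calls (144 higher and 102 lower at an unadjusted p under 0.05). Fits that left out 1 library had no batch term either, and made 1 call without control 2 and 0 without each of the other 3 libraries. Levels in the next paragraphs are CPM scaled among the member sums.

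Among the ligands, the rule genes are descriptions. Lif was at 77.9 and 36.4 CPM in Notch2 cKO and 182 and 176 CPM in control members, lower within both batches (-1.22 and -2.27). Ptgs2 was at 2088 and 1087 CPM in Notch2 cKO and 2826 and 1938 CPM in control members, and Il6 at 744 and 557 CPM against 969 and 1149 CPM. Cxcl5 was at 289 and 138 CPM in Notch2 cKO and 458 and 111 CPM in control members. Ptgs2 and Il6 were lower within both batches, whereas Cxcl5 was lower in batch 1 and higher in batch 2. Outside the rule, Cxcl2 fell to 538 and 460 CPM in Notch2 cKO members, against 1415 and 885 CPM in control members (log2 difference -1.17 ± 0.27 SE, edgeR adjusted p = 0.046). Notch2 cKO members lay closer to the threshold of the rule, with medians of 24.5 and 17.2 UMIs of the 4 genes per 10000, against 36.8 and 24.9 in control members. Those at 40 and over numbered 126 of 484 and 47 of 590 in Notch2 cKO, and 286 of 650 and 1013 of 3639 in control. Cxcl2 rose with the UMIs of the 4 genes per 10000 at every step in 3 libraries, the exception being Notch2 cKO 1. Between stromal cells with none and the highest step it differed 7.04- to 16.7-fold. Within the step of 10 to 20 it was at 399 and 441 CPM (without TMM scaling) in Notch2 cKO members, against 777 and 546 CPM in control members. At 20 to 40 it was at 380 and 600 CPM against 1197 and 916 CPM. At 40 and over it was at 1033 and 674 CPM against 1932 and 1264 CPM. The steps are built from the rule genes, and the top one held 47 members of Notch2 cKO 2 and 1013 of control 2. The part of the imbalance around the threshold in the Cxcl2 difference and in the other genotype differences was not tested. Tslp fell by 1.45 on the log2 scale and Ccl19 by 1.36, Ccl19 being at 843 and 1085 CPM in Notch2 cKO and 2412 and 2508 CPM in control members. Cx3cl1 was higher (1.33), as were Ptgs1, the constitutive cyclooxygenase (1.91), and the transporter gene Slco2a1 (1.28). Of the 20 NF-kB genes 0 were called by edgeR, with 2 lower at an unadjusted p under 0.05, and of the 22 immediate early and heat shock genes 0 were called, with 3 lower (median log2 differences -0.14 and -0.13, against 0.01 over all genes). DESeq2 called 0 of either list. Over all 11506 genes edgeR called 1.36%, and 580 were lower at an unadjusted p under 0.05. In lists this short 0 calls lie near that share, and they do not show that these genes were unchanged.

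**Figure D4:**
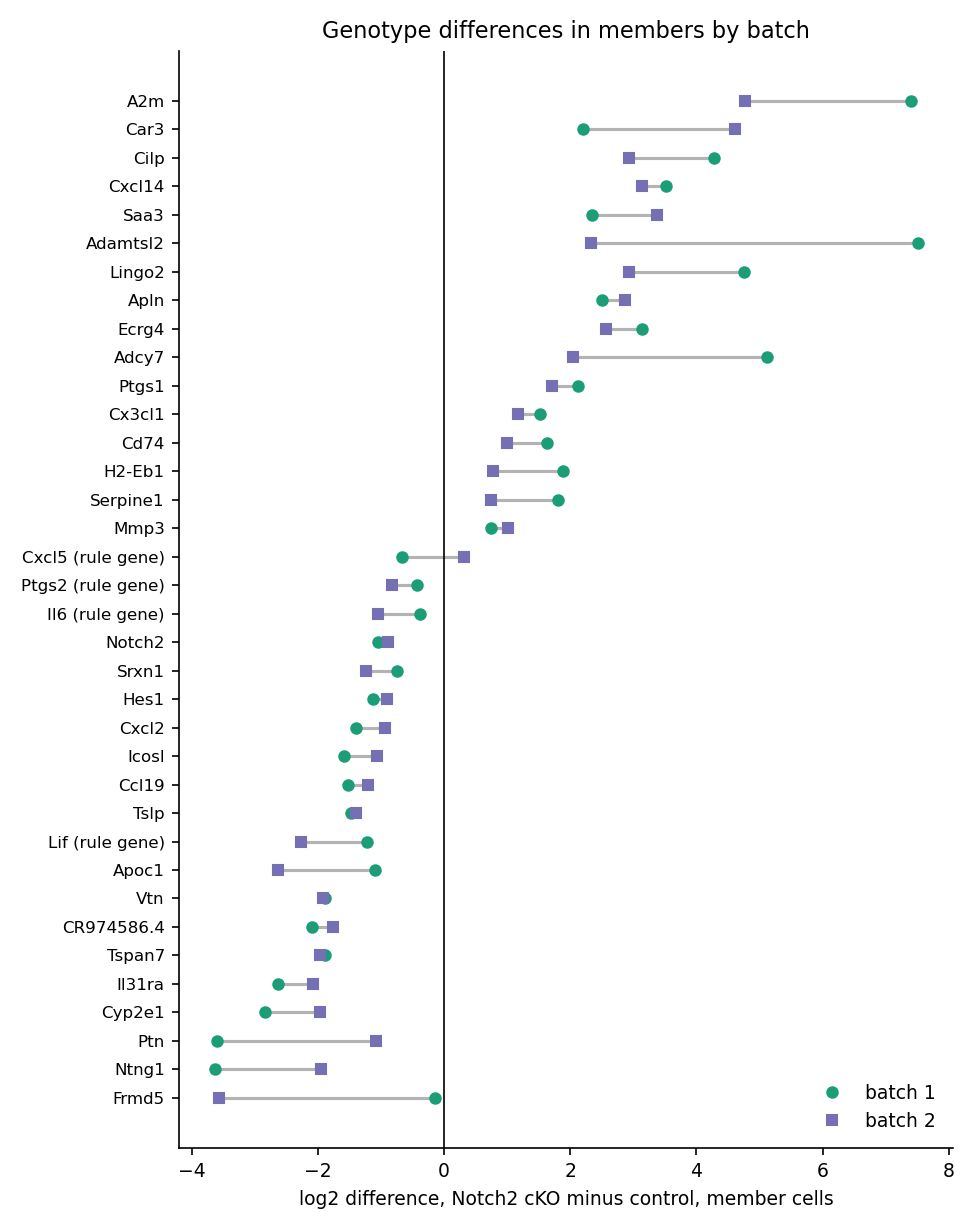
Log2 differences in member cells, Notch2 cKO minus control, within batch 1 (circles) and batch 2 (squares), for Notch2, the rule genes, genes named by size and 12 list genes. Genes are sorted by the fitted difference, with A2m at the top and Frmd5 at the bottom; Cxcl5, a rule gene shown as a description, has opposite signs in the batches.

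By size, the 10 leading increases among genes of at least 20 CPM were A2m, Car3, Cilp, Cxcl14, Saa3, Adamtsl2, Lingo2, Apln, Ecrg4 and Adcy7. Cilp, a cartilage matrix protein gene, was at 510 and 190 CPM in Notch2 cKO and 26.0 and 24.7 CPM in control members (log2 difference 3.53 ± 0.30 SE, edgeR adjusted p = 3.18e-05). This was not particular to members. At least 1 Cilp UMI was found in 50.2% and 32.2% of Notch2 cKO members and in 63.4% and 58.5% of other Notch2 cKO cells. In control nodes the shares were 5.08% and 7.80% of members and 5.80% and 11.5% of other cells. Car3 instead differed more in members, as given below. A2m, a protease inhibitor gene, was at 39.5 and 10.5 CPM in Notch2 cKO members, against 0 and 0.155 CPM in control members. Apln, which encodes a secreted peptide acting on vessels, was at 43.4 and 35.1 CPM against 7.42 and 4.61 CPM. The largest decreases included Frmd5, Ntng1, Ptn, Cyp2e1, Il31ra, Tspan7, CR974586.4, Vtn and Apoc1. Vtn, which encodes vitronectin, was at 129 and 115 CPM in Notch2 cKO and 477 and 438 CPM in control members (-1.90). The Notch target Hes1 fell to 75.7 and 121 CPM, against 166 and 227 CPM in control members (-1.01 ± 0.21 SE, adjusted p = 0.025, edgeR). The MHC class II genes H2-Aa, H2-Eb1 and Cd74 were higher by 1.25 to 1.31, with H2-Aa overlapping between genotypes across batches. The part of leukocyte transcripts in these values was not tested. Frmd5 and Il31ra also overlapped, and without control 2 their fitted difference was positive (0.73 and 4.17, neither called).

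An interaction term tested whether the genotype difference in members differed from that in other stromal cells. Of the 157 called genes, 19 differed between members and other stromal cells in the size of the genotype difference by edgeR. Over 16229 genes this test called 162 (0.998%) with a more positive and 40 (0.246%) with a more negative difference in members. Without control 2 it called 60 and 23, without Notch2 cKO 2 it called 31 and 8, and DESeq2 called 8 and 3. The genes printed here were chosen after their values were seen. Car3, Mgp, Serpine2, Col15a1, Fgf23 and Tmtc2 were picked by size among called genes whose differences did not overlap between genotypes. Their separation was thus fixed by the choice and is a description. Car3, a carbonic anhydrase gene, was higher in members than in other cells by 2.46 and 2.27 on the log2 scale in Notch2 cKO, against -0.28 and 0.30 in control. Mgp, a matrix inhibitor of calcification, stood at 0.35 and 1.17 in Notch2 cKO and at -2.21 and -0.60 in control, with Serpine2 and Col15a1 in the same direction. Has2 exceeded the other cells by 2.42 and 2.27 in Notch2 cKO and by 1.61 and 1.19 in control (interaction 0.98 ± 0.16 SE). The reverse held for Fgf23, a hormone gene, at 0.39 and 0.69 in Notch2 cKO against 2.37 and 2.03 in control, and for Tmtc2 at -0.01 and -0.09 against 1.01 and 1.24. Cells with at least 3 Car3 UMIs were members in 23.7% (9 of 38) and 16.8% (32 of 191) of cases in Notch2 cKO, and in 9.09% (2 of 22) and 27.9% (12 of 43) in control. They made up 1.86% and 5.42% of Notch2 cKO members and 0.308% and 0.33% of control members, and their part in these differences was not tested.

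**Figure D5:**
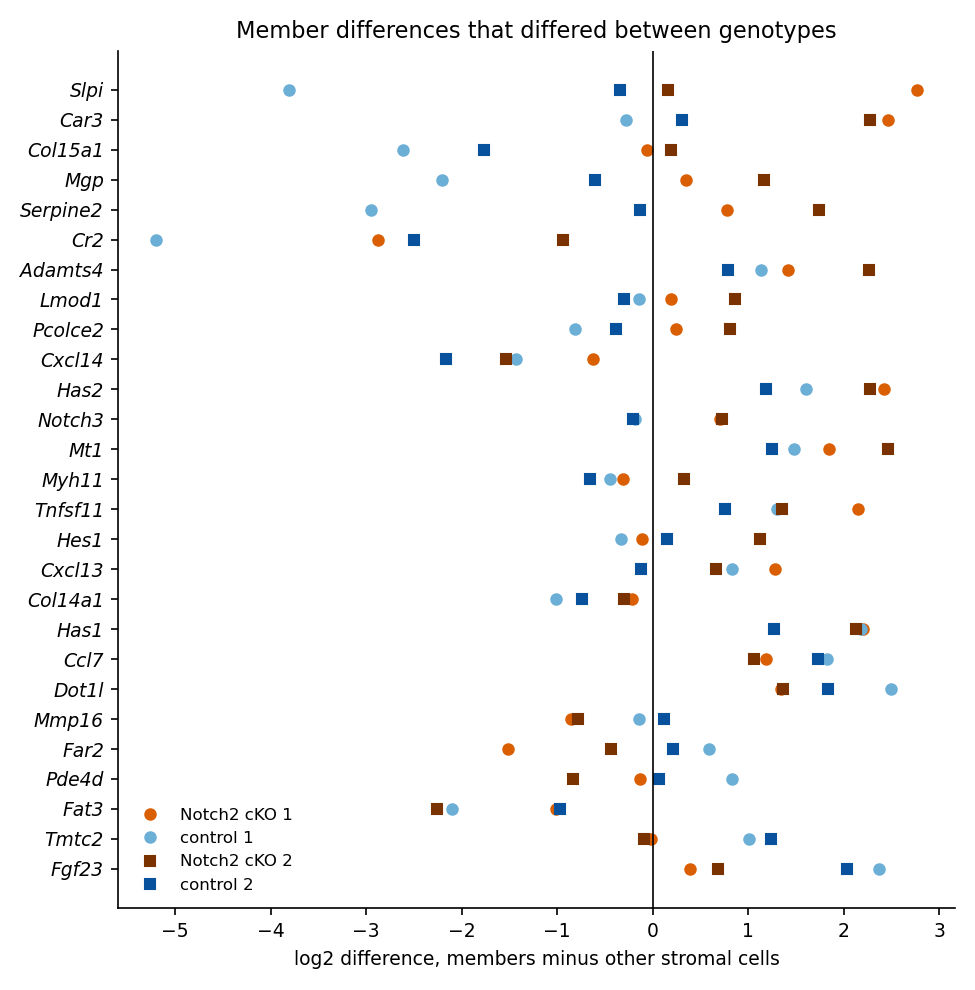
Log2 difference between members and other stromal cells in each library, for 27 named genes whose difference differed between genotypes (edgeR interaction test). For Car3 and Mgp both Notch2 cKO libraries lie to the right of both control libraries, and for Fgf23 and Tmtc2 to the left. These genes were picked with such a separation required.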

How the data were processed

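Per the file headers, the authors deposited UMI counts per gene and barcode from Cell Ranger 5.0.1 (batch 1) and 7.1.0 (batch 2), and the submitters' processing notes name version 5.0.1 and mm10. The intron setting and the cell calling are not stated, and what the version change did to levels in batch 2 was not tested. The members and the 22 gene lists were chosen with earlier results of these data known. Sums of these counts over the members, and over the other stromal cells, of each library entered the quasi-likelihood test of edgeR 4.0.16 (R 4.3.3, limma 3.58.1), with TMM scaling, low genes removed by filterByExpr, and p-values adjusted by Benjamini-Hochberg (threshold 0.05). DESeq2 1.42.0, run on the same sums, was an alternative, as were other scalings, filters, member rules and left-out libraries. Batch was a term in the genotype comparison and the library a block in the others, because the labels give the numbers as batches. Deviations of same-batch libraries correlated at 0.784 over 6273 genes. Per-library log2 differences used a prior count of 2, and standard errors come from the log2 difference and the F statistic. Permutation tests and exact intervals used Python 3.11.15 with scipy 1.17.1, numpy 2.4.6 and pandas 2.3.3. The code was tested on simulated data.

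The text names the rule genes, Srxn1 and Adamts9, the 12 largest changes per direction against other stromal cells and the 10 largest per direction by genotype, past the test, with 1 sign in all libraries or both batches and at least 20 CPM, and up to 5 genes per list by lowest p. Predicted, ribosomal, mitochondrial and haemoglobin genes were passed over, and some genes are not reported here. Other list genes are given as values, and genes of the Il6-led split and of the interaction test were chosen after their values were seen. Positions are from GENCODE M21 (GRCm38).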

Additional observations from a re-analysis of the deposited data

Results flagged for a closer look

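For 27 named genes the log2 difference between members and other stromal cells differed between Notch2 cKO and control nodes, by edgeR's interaction test with Benjamini-Hochberg adjustment. The values below are that difference in Notch2 cKO minus that in control. Slpi, Car3, Col15a1, Mgp, Serpine2, Fgf23, Tmtc2, Pde4d, Far2 and Mmp16 were picked by size among called genes without overlap between genotypes, so their separation was fixed by the choice. They were positive for Slpi (2.27), Car3 (2.20), Col15a1 (1.96), Mgp (1.91), Serpine2 (1.69), Cr2 (1.56), Adamts4 (1.11), Lmod1 (1.07), Pcolce2 (1.04), Cxcl14 (1.00), Has2 (0.98) and Notch3 (0.92). Smaller positive values were found for Mt1 (0.80), Myh11 (0.79), Tnfsf11 (0.73), Hes1 (0.66), Cxcl13 (0.63), Col14a1 (0.59) and Has1 (0.57). They were negative for Fgf23 (-1.48), Tmtc2 (-1.23), Fat3 (-0.93), Pde4d (-0.88), Far2 (-0.87), Mmp16 (-0.84), Dot1l (-0.77) and Ccl7 (-0.65). For Fat3 the batches went opposite ways. Its members differed from other cells by -1.01 in Notch2 cKO 1 against -2.10 in control 1. In batch 2 Fat3 differed by -2.26 in Notch2 cKO against -0.97 in control. Has1 differed by 2.20 in Notch2 cKO 1 and 2.18 in control 1, so its value rested on batch 2 (2.13 against 1.27). Notch3, a Notch receptor gene, was higher in members than in other cells by 0.71 and 0.72 in Notch2 cKO, against -0.19 and -0.20 in control nodes. Ccl7, a monocyte chemokine gene, exceeded the other cells by 1.19 and 1.06 in Notch2 cKO and by 1.82 and 1.73 in control nodes. Slpi, an antiprotease gene, had 0 CPM in members of control 1, so the size of its value depends on the prior count. It was at 124 CPM in members of Notch2 cKO 1 and at no more than 4.87 CPM in those of the other 3 libraries, and in batch 2 members differed from other cells by 0.16 in Notch2 cKO and -0.34 in control nodes. Cr2 had 0 CPM in members of both batch 1 libraries, with the same limit.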

How the results depend on the processing

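The difference in member share was negative under each of the other settings run, at -18.4 to -1.65 points when 1 library was left out, and at -1.21 and -18.9 within batches. Against other stromal cells, edgeR called 1501 to 2086 genes when 1 library was left out. Without the replicate block there were 0 calls in any of the 3 comparisons. By genotype in members, 157 genes were called, but 55 with DESeq2, 382 without a filter on low counts, 305 among cells of 3000 to 20000 UMIs, 31 in members with at least 2 rule genes detected and 247 among cells with a Ccl19 UMI (chosen after seeing the data). Leaving out 1 library, with no batch term, gave 0 to 1. The interaction test called 202, but 11 with DESeq2 and 39 to 183 with 1 library left out. Frmd5 lay between -4.13 and 0.73 and Il31ra between -12.89 and 4.17 with 1 library left out, positive without control 2 in each case. The causes were not tested. Of the other repeats on the 103 called named genes against other stromal cells, 875 kept the call, 151 lost it and 0 changed direction, and in the 38 by genotype 268 kept it, 102 lost it and 0 changed direction. With 2 libraries per genotype, pooled mice and each batch holding 1 library per genotype, effects of a library and of genotype within a batch cannot be told apart.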

Other observations

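Of 12 tested genes of the integrated stress and unfolded protein responses, 8 were higher and 0 lower than in other stromal cells (edgeR, median log2 difference 0.24). Over all genes 7.31% were higher and 5.82% lower. Ppp1r15a, a phosphatase regulator of the stress response, averaged 459 ± 97.6 CPM in members and 308 ± 68.3 CPM in other cells (SD, n = 4). Hspa5, an endoplasmic reticulum chaperone gene, and the transcription factor gene Atf4 differed by 0.39 and 0.41, each in 4 of 4 libraries. Of 14 glycolysis and hypoxia genes, 3 were higher and 0 lower, among them Hk2, a hexokinase gene (0.87), and Vegfa, an angiogenic factor gene (0.53).

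Beside the same shares over all genes (7.31% higher, 5.82% lower), 3 more lists were counted. Of 16 interferon response genes 4 were higher, Cxcl10, Gbp2, Irf1 and Iigp1 (1.36, 0.50, 0.48 and 0.33), and 0 were lower. Of 16 contractile and mural genes 2 were higher and 3 lower, with Abcc9, a potassium channel subunit gene, at 0.57 and Tagln, a smooth muscle gene, at -0.55. Of 11 Notch receptor and target genes, Hey2 (-1.39) and Nrarp (-1.24) were lower in members, both at low levels, and Nrarp lost its call without control 2.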
